A study of Homo sapiens with 8 samples.

Results

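Of the 22506 Ago2 binding peaks listed for 293S cells, 779 (3.46%) lay in exons of noncoding transcripts outside genes named as small nucleolar or Cajal body RNAs (symbols starting with SNORA, SNORD or SCARNA). They were chosen by the annotation given with each peak and by the gene symbol, with no measured value. The 779 peaks belonged to 128 of the 6326 genes that had a peak, and made up most of the 960 peaks in noncoding exons. Of these genes, 89 had 1 peak, 25 had 2 to 4 and 14 had 5 or more.

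293S is an established human embryonic kidney cell line. Cells were left untreated (control) or treated with emetine, which blocks the elongation step of protein synthesis, at 20 µg/mL for 60 minutes. Each treatment was 1 culture sample, from which 1 aliquot was used for RNA-seq and 3 aliquots for crosslinking and immunoprecipitation (CLIP) with Ago2 antibodies from Abnova, Santa Cruz and Sigma. There were thus 3 CLIP libraries and 1 RNA library per treatment, and the p-values below measure the spread between aliquots and antibodies of 1 culture, not between cultures. Untreated cells and emetine-treated cells shared the line, the medium and the antibodies.

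Ago2 is the Argonaute protein that carries a microRNA and finds RNAs that pair with bases 2 to 8 of it, the seed. Most of its well-known targets are messenger RNAs in the cytoplasm, where pairing lowers translation and stability. Noncoding transcripts are not translated. Some, such as XIST, MALAT1 and NEAT1, are abundant and stay in the nucleus, some are short structured RNAs of enzymes and splicing complexes, and some are hosts from whose introns or exons snoRNAs or microRNAs are cut. A few cytoplasmic ones are known to pair with a microRNA over many bases.

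Members of 2 kinds have a known tie to microRNAs. MIR17HG is the host transcript of the miR-17-92 cluster, whose mature microRNAs are shown because its peaks are described below; the seed is in capitals. RefSeq places these 6 on chromosome 13 of GRCh38.p14, plus strand, from 91350618 to 91351382.
hsa-miR-17-5p: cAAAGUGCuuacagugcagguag
hsa-miR-20a-5p: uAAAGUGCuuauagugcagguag
hsa-miR-18a-5p: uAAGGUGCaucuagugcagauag
hsa-miR-19a-3p: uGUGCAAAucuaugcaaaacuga
hsa-miR-19b-3p: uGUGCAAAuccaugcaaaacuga
hsa-miR-92a-3p: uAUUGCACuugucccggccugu
miR-17 and miR-20a share 1 seed, and miR-19a and miR-19b share another. OIP5-AS1 is the transcript known as Cyrano, which carries a long site for miR-7. The microRNA (RefSeq, GRCh38.p14, MIR7-1 on chromosome 9, minus strand, 83969811 to 83969834) is shown with its seed in capitals, and the site, bases 2869 to 2894 of the GENCODE release 29 transcript OIP5-AS1-201, with the bases that pair with miR-7 in capitals.
hsa-miR-7-5p: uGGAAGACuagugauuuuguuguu
OIP5-AS1 site: AACAACAAAATCACcaatGTCTTCCA
The site matches miR-7 over 14 bases and, after a gap, over 8 bases that include the seed. The seed match GTCTTCC (this strand only) occurred 3 times in the 8829 bases of this transcript, and 46.8% of the 2596 transcripts within 20% of that length hold it at least once. Peak coordinates are those of the deposited table, on hg19, and peak sequences were not read because no genome of that build was used here.

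The deposited table gives 1 average and 1 ratio per peak, and whole reads per library were recovered from these values for all 779 members. Antibodies could not be assigned to the recovered libraries. They are numbered by falling value of 1 read after normalisation, which with emetine was 8.86 (library 1), 3.0 (library 2) and 2.81 (library 3), and without it 8.0, 2.82 and 2.43. The CLIP libraries held between 40023 and 117733 reads in listed peaks, and library 1 of each treatment was the shallowest. The RNA libraries held 3769241 reads with emetine and 1561464 in the control over the genes with peaks. Of 7 markers of this cell type, 2 (VIM and NEFL) had a listed peak, and of 7 markers of blood, epithelial, liver, stromal and endothelial cells none had one.

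The members took very different shares of the reads of the 3 aliquots, and nearly the same share with and without emetine. They held 43.5% of the reads in emetine library 1, 5.49% in library 2 and 11.7% in library 3. Without emetine the figures were 41.0%, 5.42% and 11.4%. Library 1 of both treatments therefore stood apart from the other two, by 7.91-fold and 7.57-fold over library 2. The mean share was 20.2% ± 20.4 with emetine and 19.3% ± 19.1 in the control (SD, n = 3 libraries each). The treatments did not differ beyond this spread (two-sided exact permutation test, p = 0.7, adjusted p = 1 over 8 shares tested, smallest possible p = 0.1). Without library 1 of both treatments the means were 8.57% and 8.41%.

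**Figure D1:**
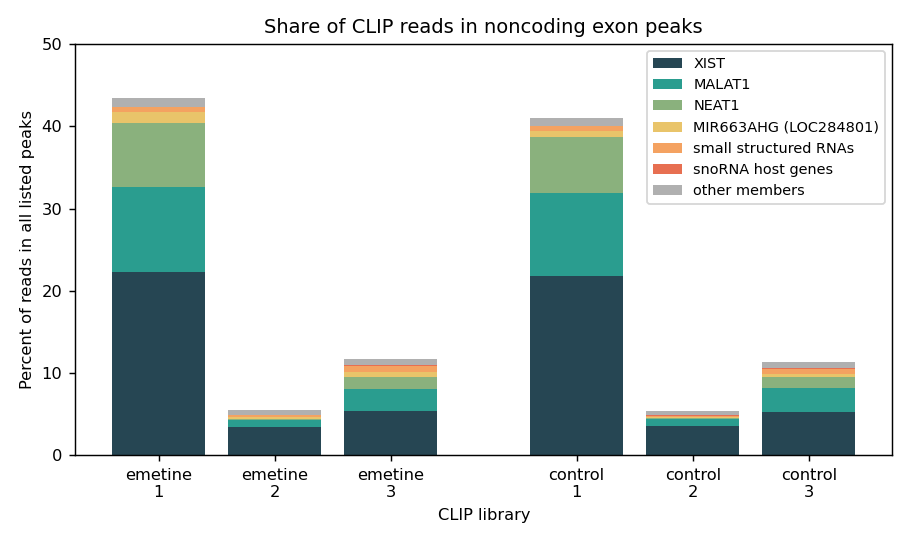
Percent of all reads in listed peaks that fell in the noncoding exon peaks (y axis) in each of the 6 CLIP libraries (x axis), stacked by gene or gene group. Library 1 of each treatment reaches over 40%, against 5.42% to 11.7% in the other 4, and each treatment has 1 high, 1 middle and 1 low library.

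The same order of libraries held within the leading genes, to unequal degrees. The share of XIST was 6.47-fold higher in emetine library 1 than in emetine library 2, that of MALAT1 12.2-fold and that of NEAT1 49.1-fold. In the control libraries these values were 6.19, 12.1 and 34.9. For the small structured RNAs, such as those of RNase P and RNase MRP, they were 2.84 with emetine and 3.61 in the control. The 181 peaks of snoRNA and scaRNA genes, which are not members, had 2.90 and 2.15. Among the members' own reads, NEAT1 made up 17.9% in emetine library 1 and 2.88% in emetine library 2, while XIST made up 51.2% and 62.6%. Library 1 also had the fewest reads in listed peaks in each treatment, and the part of depth or antibody in these differences was not tested.

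As peaks, the members, 535 of them in XIST, MALAT1 and NEAT1, were wider and held more reads than the other listed peaks. Their median width was 42 nt against 29, and their median number of reads over the 6 libraries was 47 against 15. In XIST, MALAT1 and NEAT1 the median numbers were 77, 94 and 111.5. Reads from all 6 libraries were present in 300 members (38.5%) and in 776 of the other peaks (3.57%). Only 21 of these 300 were among the 244 members outside XIST, MALAT1 and NEAT1. In 72 members (9.24%) more than 90% of the normalised reads came from 1 library, against 33.4% of the other peaks. All 72 lay outside XIST, MALAT1 and NEAT1, where they were 29.5% of 244 peaks. Neighbouring peaks often overlapped, as 360 members (46.2%) shared bases with another listed peak, so peaks of a gene are not independent of each other. None overlapped a listed peak that was not a member. In 13 of the genes, with 26 member peaks, other listed peaks lay in coding sequence or untranslated regions of another transcript.

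XIST, the long nuclear RNA that coats and silences an X chromosome, had 352 of the 779 peaks (45.2%). They lay on the minus strand of chromosome X between 73040509 and 73072542 and covered 15840 nt, or 82.3% of the 19245 nt of the transcript. Its peaks held 9215, 3603 and 5286 reads with emetine (libraries 1 to 3, the order used throughout) and 8747, 4160 and 5456 reads without. Library 1 was highest in both treatments, and the treatments overlapped. The ratio of emetine to control, from read totals scaled for depth, was 1.10 (exact binomial 95% interval 1.07 to 1.12, counting error only). Summed over the gene, the limma log2 change was 0.09 ± 0.08 (SE, n = 3 libraries each). Single peaks varied more, from -3.11 to 3.84 on the log2 scale with quartiles at -0.51 and 0.92, and 193 of the 352 held reads in all 6 libraries. The peak with most XIST reads, at 73069037 to 73069085, held 172, 92 and 96 reads with emetine and 158, 112 and 87 in the control.

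The profile along XIST is drawn on genomic distance, introns included. Since members are exon peaks, bins within its introns cannot hold any, and the empty bins between the long first and last exons are no gap along the RNA. Of the 43 bins of 500 nt that held reads, 30 had a higher mean with emetine and 13 a lower one. The ratio of means ran from 0.81 to 1.65 over the 40 bins with at least 100 reads. The fullest bin held 6.17% of the reads of the gene. These means weight library 1 most, because 1 of its reads is worth most after normalisation.

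MALAT1, an abundant RNA of nuclear speckles, had 123 peaks (15.8%) on the plus strand of chromosome 11 between 65266531 and 65273566. They covered 67.1% of its transcript and held 4285, 887 and 2512 reads with emetine and 3997, 973 and 3004 in the control. The treatments overlapped, with a ratio of 1.07 (1.04 to 1.10) and a gene-level log2 change of 0.05 ± 0.13 (SE). Of its 15 bins, 12 had a higher mean with emetine, again with library 1 weighted most. The ratio ran from 0.90 to 1.49 over the 14 bins with at least 100 reads. Its peak at 65268867 to 65268913 held 179, 45 and 119 reads with emetine and 178, 37 and 132 in the control.

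NEAT1, the RNA scaffold of nuclear paraspeckles, had 60 peaks (7.70%) on the plus strand of chromosome 11 between 65190280 and 65193930, over 90.9% of the 3524 nt of the listed transcript. They held 3218, 166 and 1514 reads with emetine and 2729, 230 and 1385 in the control. Library 2 was low in both treatments, and the treatments overlapped. The ratio was 1.25 (1.2 to 1.31) and the gene-level log2 change 0.11 ± 0.20 (SE), within the spread between libraries. Reads were densest at the 5′ end, where 23.0% fell in the first 500 nt, and all 8 bins had a higher mean with emetine, by 1.02 to 1.65 times. Together the 3 genes held 535 of the 779 peaks (68.7%) and 88.0% of the 69739 reads.

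**Figure D2:**
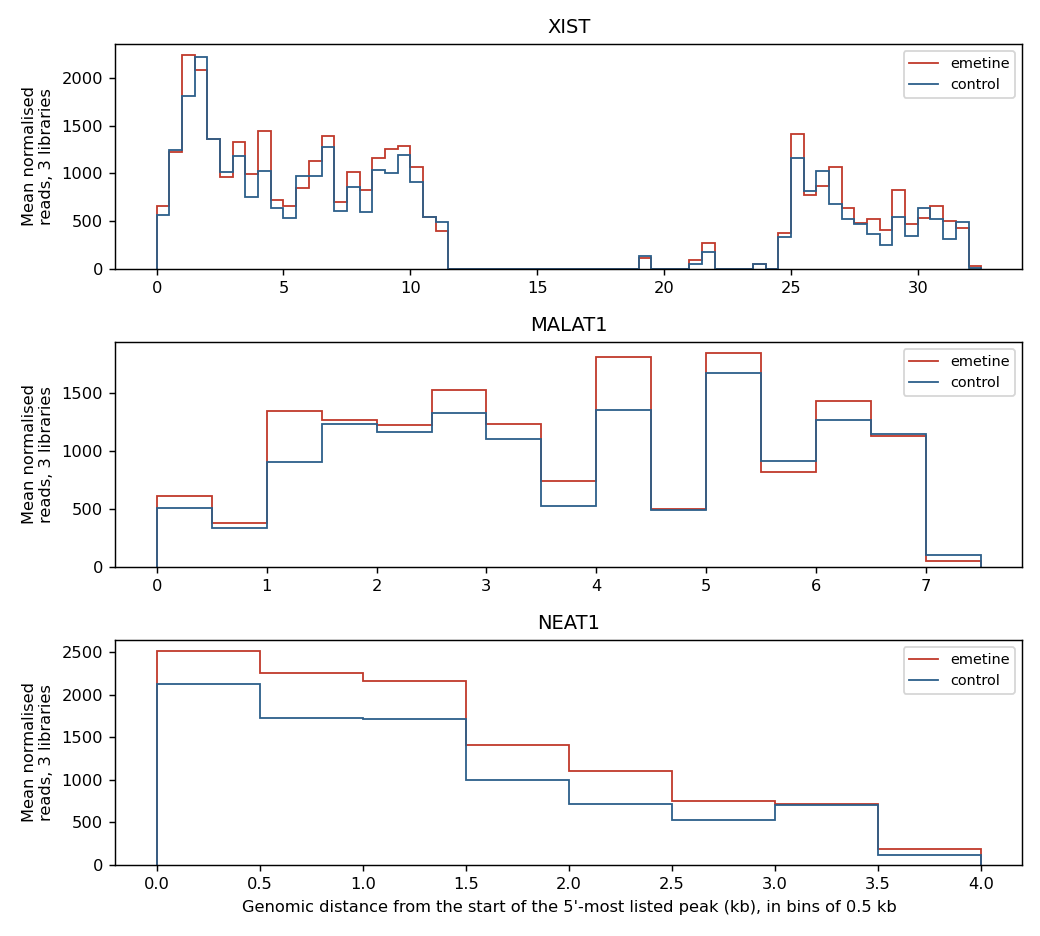
Mean normalised CLIP reads of the 3 libraries per treatment (y axis) in bins of 0.5 kb along XIST, MALAT1 and NEAT1 (x axis: genomic distance in kb from the start of the 5′-most listed peak). The emetine and control lines follow each other; NEAT1 reads decline from the 5′ end, and the empty stretch of XIST lies in its introns, where no member can be.

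The other nuclear RNAs on the list held far fewer reads. KCNQ1OT1, an imprinted antisense RNA, had 19 peaks over 0.72% of a transcript of 91667 nt. They held 59, 36 and 27 reads with emetine and 55, 20 and 62 in the control, with a ratio of 0.99 (0.77 to 1.27). TUG1 had 11 peaks with 31, 38 and 25 reads against 28, 20 and 74, with a ratio of 0.86 (0.65 to 1.13). In both genes the treatments overlapped. Over the 6 genes of the nuclear list, 298 peaks were higher and 268 lower with emetine (median log2 change 0.09, against 0.01 over all 22495 peaks with recovered reads).

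**Figure D3:**
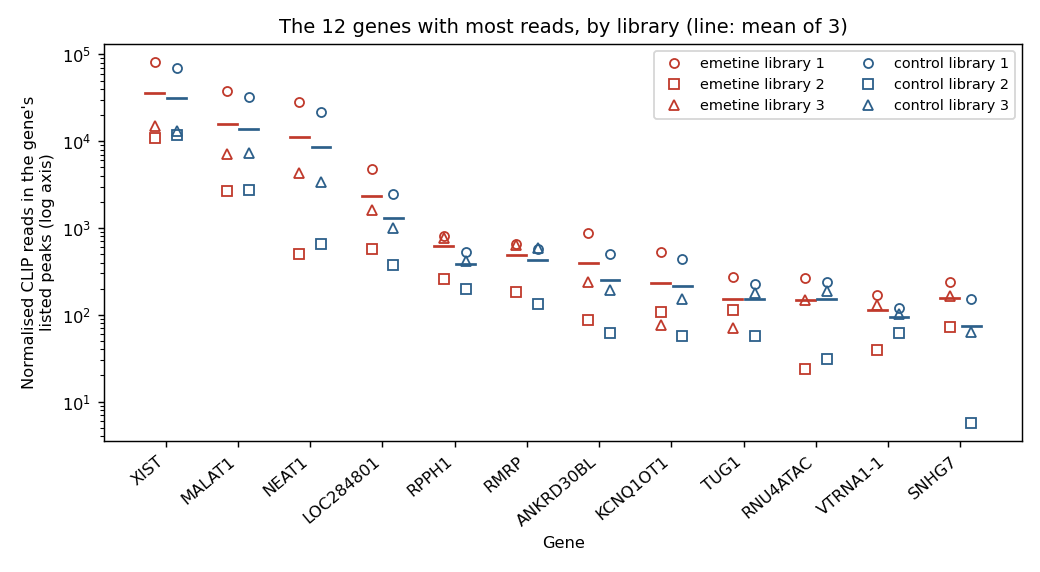
Normalised CLIP reads in the listed peaks (y axis, log scale) of the 12 genes with most reads (x axis); symbols are libraries 1 to 3 of each treatment and lines are means of 3. Library 1 is highest in both treatments in every gene shown except RMRP, where control library 3 is slightly above control library 1 (585 against 576). The treatments overlap in every gene shown.

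Among 9 genes of small structured RNAs, 15 of 20 peaks were higher and 5 lower with emetine (median log2 change 0.27). RPPH1, the RNA subunit of RNase P that trims transfer RNA precursors, led this group. Its 6 peaks, on the minus strand of chromosome 14 between 20811271 and 20811570, held 92, 85 and 274 reads with emetine and 66, 70 and 171 in the control. Library 3 was highest in reads in both treatments, and the groups overlapped after normalisation. The ratio was 1.63 (1.41 to 1.89) by counting error, and the gene-level log2 change of 0.63 ± 0.54 (SE) was within the spread between libraries. The fit has no antibody term, so the spread between antibodies, which both treatments share, is part of this error here and in the other gene-level changes. RMRP, the RNA of the related RNase MRP, had 73, 61 and 230 reads against 72, 47 and 241, and a ratio of 1.12 (0.97 to 1.30).

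Other small RNAs lay on either side of 1. TERC, the template RNA of telomerase, had 10, 19 and 37 reads against 12, 2 and 29 in 5 peaks, with a ratio of 1.71 (1.14 to 2.57). RNU12, of the minor spliceosome, had 2, 10 and 21 reads against 3, 4 and 9, with a ratio of 2.29 (1.23 to 4.46). RNU4ATAC, of the same spliceosome, had 30, 8 and 53 reads against 30, 11 and 77, with a ratio of 0.86 (0.65 to 1.14). The vault RNA VTRNA1-1 had 19, 13 and 46 reads against 15, 22 and 42, with a ratio of 1.10 (0.79 to 1.52). In none of these 4 genes were the treatments separate.

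Relative to RNA, the members spanned the whole range of the table. In the authors' deposited table, the median average of CLIP relative to RNA was -11.57 on the log2 scale for the members and -8.52 for the other peaks. All 100 of the lowest averages of the table were members, 98 in XIST and the others in MALAT1, both with very many RNA reads. Each average sets 1 peak against the RNA reads of its whole transcript, so it does not give the CLIP reads of that transcript. Summed over its peaks, normalised CLIP reads of XIST were 0.088 of RNA reads with emetine and 0.056 in the control. These were above those of TUG1 (0.035 and 0.030) and below those of MALAT1 (0.16 and 0.10). At the high end of the table, 5 members were among the 20 highest averages. The highest of all, 5.42, was the single peak of LOC284801 (RefSeq symbol MIR663AHG), an RNA named as the host gene of the microRNA MIR663A, on the minus strand of chromosome 20 from 26189793 to 26189834.

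This peak held 533, 191 and 582 reads with emetine against 311, 133 and 412 without. Library 2 was lowest in both treatments, and the groups overlapped. The ratio was 1.70 (1.55 to 1.85) by counting error, and the log2 change was 0.75. The RNA libraries held 5 reads of the gene with emetine and 10 in the control. CLIP reads were thus 184 times RNA reads with emetine and 20.2 times in the control, on normalised values that rest on those few RNA reads. Whether the CLIP reads of this peak also fit other places in the genome was not tested.

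The next of these members were in ANKRD30BL and the vault RNAs. ANKRD30BL, listed with a noncoding transcript and classed as protein-coding by RefSeq, had 4 peaks on chromosome 2 between 133015146 and 133015336. They held 98, 29 and 85 reads with emetine and 62, 22 and 79 in the control, with 17 and 15 RNA reads. The ratio was 1.45 (1.17 to 1.78), the 4 peaks were all higher on average with emetine, and the gene-level log2 change was 0.53 ± 0.73 (SE). VTRNA1-3 had 4, 21 and 36 reads against 7, 14 and 48, with 11 and 5 RNA reads. In LOC284801, ANKRD30BL and VTRNA1-3 normalised CLIP reads exceeded normalised RNA reads in both treatments, which held for no other member gene. This comparison takes no account of transcript length, which was 89 nt for VTRNA1-3 and 19245 nt for XIST.

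The snoRNA host genes on the list, 8 genes with 27 peaks, had 14 peaks higher and 13 lower with emetine, and a median log2 change of 0.00. The list was matched on deposited symbols and left out at least 2 further hosts, SNHG15 and ZNFX1-AS1 (ZFAS1). SNHG15 had 4 peaks, all higher, with a ratio of 5.78 (2.90 to 12.8). ZNFX1-AS1 had 3 peaks, all lower, with a ratio of 0.21 (0.084 to 0.44). SNHG7 had 10 peaks on chromosome 9 with 27, 24 and 58 reads with emetine and 19, 2 and 26 in the control. Its control library 2 was the low value, and the ratio was 2.58 (1.81 to 3.71). SNHG1 had 5, 0 and 55 reads against 1, 0 and 23, so library 3 carried most of its reads in both treatments, and its ratio was 2.78 (1.70 to 4.66). In the other direction, C17orf76-AS1 (SNHG29) had 5, 2 and 15 reads against 2, 10 and 36, with a ratio of 0.51 (0.29 to 0.86). SNHG3 had 1, 0 and 0 reads against 6, 0 and 26, with a ratio of 0.035 (0.00085 to 0.21). Most of these reads came from 1 or 2 libraries, and no snoRNA host passed the limma test.

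MIR17HG had 3 peaks on the plus strand of chromosome 13 between 92000136 and 92005967. They held 1, 9 and 0 reads with emetine and 12, 2 and 20 in the control, for a ratio of 0.33 (0.14 to 0.68). The 3 peaks had lower means with emetine, and for the peak at 92003841 to 92003890 the libraries did not overlap, with 0, 0 and 0 reads against 1, 1 and 11. The 6 hairpins span 787 nt while the peaks lie at least 2053 nt apart, so at most 1 of the peaks can fall within the cluster shown above. Summed over the gene, the log2 change was -2.28 ± 1.95 (SE), within the spread between libraries. LOC284801 (MIR663AHG), also named above as a microRNA host, lay in the other direction, with a ratio of 1.70 (1.55 to 1.85). OIP5-AS1 had 5 peaks on chromosome 15 between 41590328 and 41591512, with 5, 23 and 1 reads with emetine and 1, 13 and 42 in the control. The ratio was 0.58 (0.35 to 0.92), and 19 of the control reads were in 1 peak of control library 3. Of the 16 peaks of OIP5-AS1 and TUG1, listed as pairing with microRNAs, 7 were higher and 9 lower with emetine.

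Members grouped by the form of their names held few reads. Antisense transcripts had 26 peaks in 8 genes, 7 higher and 19 lower with emetine (median log2 change -0.85). In this group HNRNPU-AS1 had 15, 0 and 46 reads against 20, 35 and 30, and ZNFX1-AS1 (ZFAS1) had 1, 1 and 6 against 3, 0 and 40. All 5 peaks of the LINC genes were lower, with 5, 5 and 2 reads against 18, 26 and 24 over the 5 genes. Of these genes, RefSeq classes LINC00085 as protein-coding. The single peaks of AGPAT4-IT1 and ANP32A-IT1, named as intronic transcripts, were lower too. The list of pseudogenes by the form of their names had 8 of 12 peaks higher, but 5 of the 12 were in PP7080 (SLC9A3-OT1), which RefSeq classes as a long noncoding RNA. The form of name also took in HIVEP3, which is not a pseudogene symbol. PP7080 had 9, 39 and 22 reads against 12, 13 and 23, with a ratio of 1.62 (1.11 to 2.39). Among the 21 genes that RefSeq classes as transcribed pseudogenes, 17 of 23 peaks were higher, and 11 of the 23 drew over 90% of their normalised reads from 1 library. No peak or gene of these groups passed the test, and OIP5-AS1 and TUG1 each count in 2 lists and C17orf76-AS1 in 3.

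Provisional loci, 41 genes with 62 peaks, had 29 peaks higher and 33 lower (median log2 change -0.13). LOC653653, a transcribed pseudogene, had 5, 37 and 7 reads with emetine and 0, 3 and 2 in the control. All emetine libraries were higher after normalisation, with a ratio of 10.9 (4.36 to 35.0). LOC100128881 (VPS9D1-AS1) had 1, 0 and 7 reads against 8, 33 and 2, a ratio of 0.21 (0.084 to 0.44), with overlapping groups. The remaining names, 42 genes, had 42 peaks higher and 22 lower. Among them PILRB had 55, 0 and 19 reads against 16, 0 and 0, a ratio of 5.14 (2.97 to 9.45), and most of its emetine reads came from library 1. SARS had 10, 13 and 28 reads against 0, 60 and 13, and ZNF271 had 4, 35 and 10 against 5, 26 and 17. Pseudogenes and vault RNAs have close copies, and how reads that fit several places were counted is not given in the sources used here, so their values are uncertain. The same limit holds for any other member with close copies, and LOC284801 and ANKRD30BL were not checked for them.

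Across all peaks the limma test, on log2 of normalised reads plus 1, called none of the 779 members and none of the 22495 peaks (0% called, smallest adjusted p = 0.784 after Benjamini-Hochberg adjustment). Members were higher with emetine in 411 cases (52.8%) and lower in 368, against 50.2% higher among all peaks. Their median log2 change was 0.09, against 0.01. At an unadjusted p under 0.05, 7 members were higher (0.899%) and 0 lower, against 0.769% and 0.298% of all peaks. Limma-voom also called 0 members, with 10 higher and 0 lower at an unadjusted p under 0.05, against 1.69% and 0.751% of all peaks. With each library left out in turn 0 were called, and from 2 to 51 were at that level. Without emetine library 1 0 were higher and 29 lower, against 0.925% and 0.453% of all peaks. Without control library 1 51 were higher and 0 lower, against 0.889% and 0.569% of all peaks, so the direction turned with the library left out. Without library 1 of both treatments, 0 members were called, 26 were higher and 19 lower at an unadjusted p under 0.05, against 1.79% and 1.48% of all peaks, and the median was 0.00.

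Those 7 peaks, named here after their values were seen where the rule for named genes does not reach them, were 3 in XIST and 1 each in NEAT1, SNHG7, LOC653653 and LOC728190. In XIST, the peak at 73046977 to 73047070 held 19, 28 and 12 reads with emetine and 21, 0 and 0 in the control, with a log2 change of 3.84 ± 1.67 (SE, limma adjusted p = 0.784). Control library 1 was as high as the emetine libraries in reads. In SNHG7, the peak at 139619225 to 139619268 held 2, 16 and 8 reads against 0, 1 and 0. In LOC728190 (NUTM2A-AS1), the peak at 89096600 to 89096622 held 2, 5 and 9 reads against none, at least 5.93-fold higher taking 3 reads over all control libraries as the floor. Its log2 change of 4.31 was the highest of the 7.

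The libraries of the treatments did not overlap in 7 members that were higher (0.899%) and 6 that were lower (0.770%), against 2.54% and 1.43% of all peaks. On sums per gene, 2 of 128 genes were higher without overlap (1.56%) and 3 lower (2.34%), against 3.00% and 2.15% of all genes. These 5, of which only LOC653653 was named by the rule, were LOC653653 and SNHG15 above and FLJ37453, LOC148413 and MAP3K13 below. SNHG15 held 3, 21 and 28 reads with emetine and 1, 0 and 9 in the control. FLJ37453 (SPEN-AS1) held none with emetine and 12, 4 and 11 in the control, at least 8.10-fold lower against the floor of 3 reads. Of the 128 genes none was called by limma on gene sums (0% of 6332 gene sums, smallest adjusted p = 0.799). LOC284801 was higher and FLJ37453 lower at an unadjusted p under 0.05, where 1.07% and 0.758% of gene sums were.

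**Figure D4:**
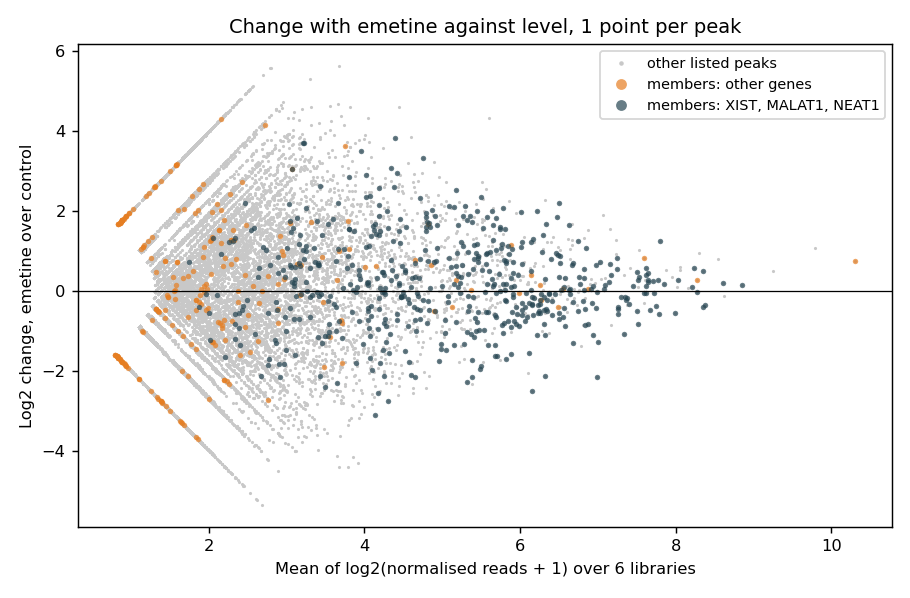
Log2 change with emetine (y axis) against the mean log2 level over the 6 libraries (x axis), 1 point per peak, with the members in colour over all other listed peaks in grey. Members of XIST, MALAT1 and NEAT1 reach further to the right than most peaks and scatter about 0, while those of other genes lie mostly among the low peaks.

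Among members at or above the members' median level, changes were largest in the 3 leading genes. These genes hold 535 of all 779 members, so they offer more peaks from which an extreme is taken. Members below that level, such as the LOC728190 peak above, are left out of this ranking. The most negative change was -2.76 ± 1.69 (SE) in XIST at 73061900 to 73061928, with 12, 1 and 0 reads against 9, 15 and 17. In MALAT1 the lowest was -2.51 ± 1.34 at 65268401 to 65268462, with 35, 0 and 30 reads against 70, 14 and 88. In NEAT1 it was -2.16 ± 1.19 at 65190568 to 65190675, with 143, 0 and 60 reads against 159, 23 and 93. In each of these 3 peaks 1 emetine library had no reads, while another held at least 12. Of other genes, the lowest were -0.50 in PP7080, -0.40 in RNU4ATAC and -0.39 in CAHM. The highest outside the 3 genes were 1.69 in RPPH1, 1.16 in ANKRD30BL and 0.77 in RNU12, with standard errors from 1.27 to 1.62 over these 6 peaks.

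In the RNA libraries, 1 per treatment and so without a replicate check, member genes were lower with emetine more often than other genes. The values were scaled per library, so they are relative and do not give the amount of RNA per cell. The log2 ratio of emetine to control was below 0 for 88 of 128 member genes (68.8%), against 49.9% of all 6319 genes with recovered values. The median was -0.22 for the member genes and 0.00 for the other 6191. For the 6 nuclear RNAs of the list the ratios lay between -0.52 and -0.20, with XIST at -0.47 (95% interval -0.48 to -0.45, counting error only), MALAT1 at -0.52 and NEAT1 at -0.46. All 9 small structured RNA genes were below 0, with a median of -0.64, from -1.16 in RPPH1 to -0.20 in VTRNA1-3. The vault RNAs had few RNA reads, and their 95% counting intervals included 0. VTRNA1-3 had 11 and 5 reads (-1.85 to 1.67) and VTRNA1-1 had 28 and 16 (-1.47 to 0.45). RPPH1 had 6193 RNA reads with emetine and 5446 in the control, where 1 read is worth 2.51 and 6.37. The snoRNA hosts on the list differed among themselves, with 3 of 8 below 0, from -0.79 in SNHG7 to 0.97 in SNHG12. SNHG15 and ZNFX1-AS1, hosts left out of the list, had RNA ratios of 0.40 and 0.44. Of the 90 member genes with at least 50 RNA reads, 1 (RPPH1) was below -1 and none above 1, against 0.792% and 0.844% of such genes.

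Because the deposited ratio divides CLIP by RNA, lower RNA raises it. Over the members its median was 0.54 on the log2 scale in the authors' deposited table, against 0.05 for all peaks, while the ratio of read totals alone had a median of 0.15 for the members and -0.07 for all peaks. In XIST, normalised CLIP reads were 0.088 of normalised RNA reads with emetine and 0.056 in the control. In MALAT1 these values were 0.16 and 0.10, in NEAT1 0.53 and 0.30, and in RPPH1 0.040 and 0.011. Across the 128 genes, CLIP and RNA reads had a Spearman rho of 0.31 in the control and 0.27 with emetine, over genes that share libraries and depth and are not replicates.

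**Figure D5:**
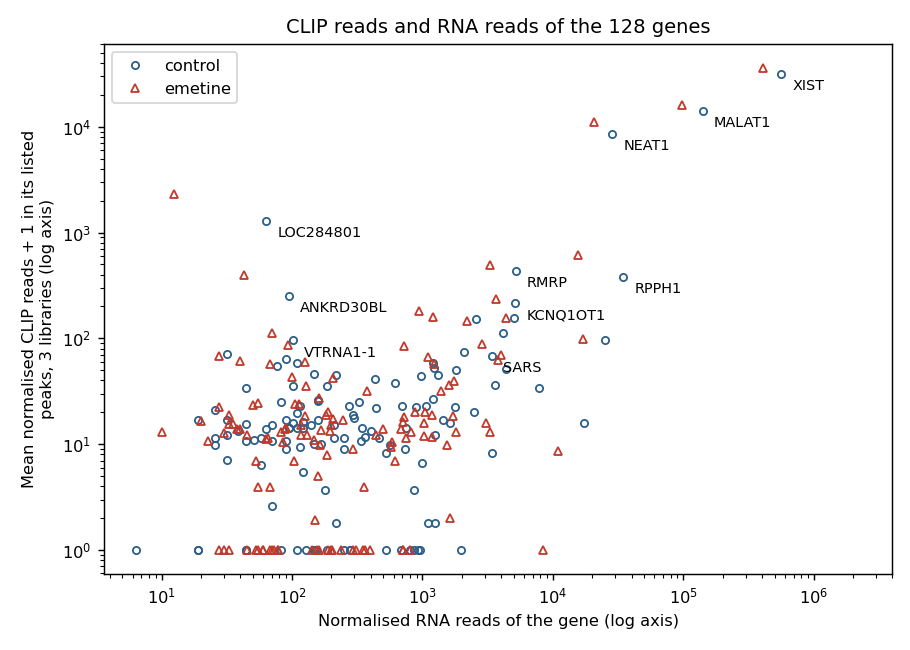
Mean normalised CLIP reads plus 1 in a gene's listed peaks (y axis) against its normalised RNA reads (x axis), both on log scales, for the 128 genes in the control (circles) and with emetine (triangles). XIST, MALAT1 and NEAT1 lie at the upper right, and LOC284801 stands apart with many CLIP reads and few RNA reads.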

How the data were processed

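Members, gene lists and tests were chosen with earlier results of these data known. The authors deposited 1 table of peaks with the natural log of normalised CLIP relative to RNA, as an average and a difference between treatments, on hg19; the submitters' processing notes name Bowtie 0.12.8, TopHat and DESeq. From each pair of values the whole reads of 6 CLIP and 2 RNA libraries were recovered, for 22495 of 22506 peaks (99.95%). In simulated data 99.5% to 99.6% were recovered exactly and none wrongly. The planned count test does not suit this unit, so the test was limma 3.58.1 with a trend on log2(reads × factor + 1), R 4.3.3, treatment alone, no filter, Benjamini-Hochberg adjustment at 0.05. In simulated data with dispersion 0.1, 98% of 8-fold and 65% of 4-fold changes were called in peaks with at least 40 reads. With dispersion 1 these were 2% and 0%. Of the 22495 simulated peaks, 6 unchanged ones were called at dispersion 0.1 and 0 at dispersion 1. Each simulated peak had 1 mean over all libraries, with no difference between antibodies. Power under the spread between antibodies was thus not simulated, and in these data the median SE of the members' log2 changes was 1.71. Power for peaks with fewer reads was not simulated either. Ratios of totals carry exact binomial 95% intervals (counting error only) and a floor of 3 reads. Genes named were the 12 with most reads, the 6 largest and 6 most negative changes, up to 4 per list, and those with 5 or more peaks. RefSeq matched 109 of 132 transcripts. Alternatives covered scaling, a minimum of 20 reads, constants of 0.5 and 5, limma-voom, gene sums and each library left out.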

Additional observations from a re-analysis of the deposited data

How the results depend on the processing

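The 0 members called stayed 0 under all 13 alternatives, which included each library left out, with smallest adjusted p-values from 0.278 to 0.952 in limma. No paired analysis was possible because the recovered libraries carry no antibody label, and matching them by likeness would take the antibody from the values. The share of reads in the members, 0.91 percentage points higher with emetine, ranged from -10.72 to 11.79 when each library was left out, and it turned negative when emetine library 1 (-10.72) or, of the controls, library 2 (-6.02) or 3 (-3.04) was dropped. The median log2 change of the members, 0.09, ranged from -1.0 to 1.05 when each library was left out, and turned negative without emetine library 1 (-1.0) or control library 2 (-0.59). It was 0.04 on gene sums, 0.12 among members with at least 20 reads, 0.02 when scaled to reads in listed peaks, 0.10 without XIST and 0.05 without XIST, MALAT1 and NEAT1. Settings without library 1 of both treatments, and those without the leading genes, were chosen after seeing the data. The median RNA ratio stayed at -0.22 in the alternatives run. In simulated peaks with at least 40 reads, 4-fold changes were not detectable at a dispersion of 1.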
